A study of Mus musculus with 6 samples.

Results

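Chemokines, the small secreted proteins that direct the movement of white blood cells, and the receptors that read or remove them were measured in mouse lung by 78 probe sets for 52 genes. A probe set is a group of short array probes for a transcript. Members were the probe sets for which the platform annotation gives a single gene symbol, with a symbol of the Ccl, Cxcl, Ccr or Cxcr series or Cx3cl1, Cx3cr1, Xcl1, Xcr1 or Ackr1 to Ackr4. They were 78 of 45037 probe sets, and 52 of the 17097 genes that the annotation names. In all, 34 genes were ligands and 18 were receptors. Of the atypical receptors Ackr2, Ackr3 and Ackr4 were measured by such probe sets. The samples were whole lungs of 6 male BALB/c mice, listed as 10 weeks old. The 3 control mice were kept in normal air, and the 3 hydrogen mice for 3 weeks in 2% hydrogen with 98% air. No allele, transgene or other agent is listed for either group. Each mouse was measured on its own array, and values are log2 RMA values, a normalised measure of probe set brightness. The comparison asks how the transcript levels of hydrogen mice differed from those of control mice.

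Chemokines are named for the spacing of cysteines near their start, which separates the CC, CXC, CX3C and XC families. They bind receptors coupled to inhibitory G proteins on leukocytes, and gradients of them guide cells through vessel walls and tissue. Inflammatory chemokines are induced during infection or injury, while homeostatic ones keep lymphocytes in place. Atypical receptors bind the same ligands without G protein signalling and clear them. In lung, epithelial cells, macrophages and stromal cells are well known sources.

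A large share of the whole array passed the threshold, which sets the scale for the members. The threshold was a limma p, adjusted by Benjamini-Hochberg over all probe sets, below 0.05, and 47.1% of all probe sets passed it, 24.3% as higher and 22.8% as lower in hydrogen lungs. With each array centred on its median the counts over all probe sets turned from 10956 higher and 10257 lower to 6377 higher and 14571 lower. Array medians were 4.75 to 4.76 in control and 4.84 to 4.85 in hydrogen mice, and SDs over probe sets were lower in hydrogen mice (at most 1.81) than in controls (at least 1.90), so the deposited arrays do not share 1 distribution. The change followed brightness: the decile medians ran from 0.15 in deciles 4 and 5 of mean log2 value to -0.23 in decile 9. Of the 85 control probe sets of non-mouse origin, 15 were higher and 27 lower, with log2 changes from -0.97 to 1.07. Lung markers were bright in controls, at 13.15 for the surfactant gene Sftpc, 13.22 for the club cell gene Scgb1a1 and 12.67 for the alveolar type 1 gene Ager. Of 14 cardiac muscle markers, 12 were lower and 1 higher, and their summed linear signal was 9166 to 11251 in control and 1175 to 4731 in hydrogen lungs. The part of these shifts in the members' changes was not tested. The labels name no batch, so a batch difference and the hydrogen exposure cannot be told apart. With 3 mice a group the smallest two-sided p of an exact permutation test is 0.1, so the tests are limma's. In whole tissue, fewer cells of a type and less RNA per cell cannot be told apart.

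Among the members 29 of 78 probe sets were higher and 12 were lower in hydrogen lungs, and 37 did not pass the threshold. That is 37.2% higher and 15.4% lower, beside 24.3% and 22.8% of all probe sets (47.1% in either direction). The median log2 change was 0.10 over members and 0.02 over all probe sets, and members ranged from -1.40 to 0.64. Of the 44 member probe sets at or below the median of all probe set means (4.8), here called dim, 17 were higher and 3 lower, or 38.6% and 6.82%, where 32% and 7.31% of all dim probe sets were. Of the 34 brighter ones 12 were higher and 9 lower, or 35.3% and 26.5%, where 16.7% and 38.2% of all brighter probe sets were. With each array centred on its median 19 member probe sets were higher and 14 lower, where 14.2% and 32.4% of all probe sets were. After renewed quantile normalisation 19 were higher and 12 lower, where 18.7% and 16.8% of all probe sets were. After cyclic loess 17 were higher and 13 lower, where 17% and 18.4% of all probe sets were. The groups did not overlap for 32 probe sets with higher hydrogen values and 14 with lower ones, which is 46 of 78, where 30.9% and 26.4% of all probe sets showed the same. Counted by the brightest probe set of each gene, 19 of 52 genes were higher and 7 lower, where 25.5% and 25.9% of all genes were (51.4% in either direction). By these probe sets 19 genes were higher and 8 lower without overlap between the groups, where 31.2% and 29.9% of all genes were. Read against these backgrounds, the members are described singly below, and nothing is drawn from the list as a whole. For each count of called genes or markers below, the background is the 25.5% higher and 25.9% lower of all genes.

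**Figure D1:**
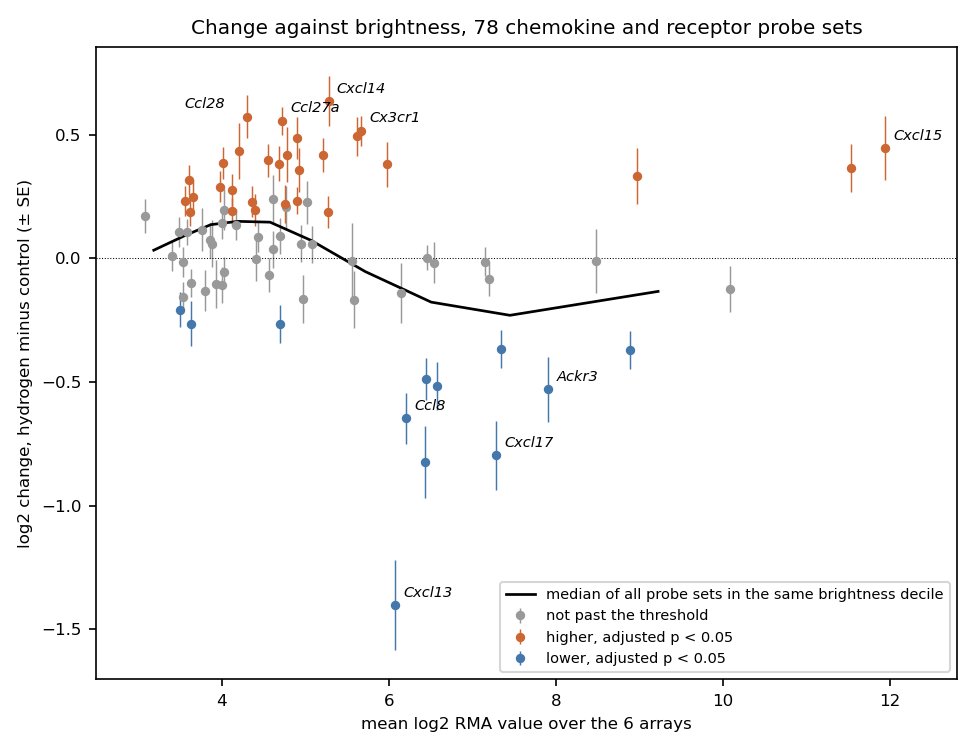
Log2 change (hydrogen minus control, ± SE) of the 78 member probe sets against their mean log2 RMA value over the 6 arrays, coloured by call, with the median change of all probe sets in each brightness decile as a line. Cxcl13 lies lowest at -1.40, and both Cxcl15 probe sets lie above 0 at the bright end, where the line is below 0.

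In control lung the order of signals was led by Cxcl15, an epithelial CXC chemokine of the mouse lung that attracts neutrophils, at 11.71 ± 0.09 (SD, n = 3). Probe sets differ in how strongly they respond, so the order is of log2 signals and not of transcript numbers. Next came Ccl6, a CC chemokine of myeloid cells, at 10.15 ± 0.17, and Ackr2, a scavenger of inflammatory CC chemokines, at 9.07 ± 0.10. They were followed by Cxcl12 (8.80 ± 0.19), which holds and guides stem cells and lymphocytes, and Ccl5 (8.48 ± 0.16), a product of T and NK cells. Ackr3, a scavenger of Cxcl12, had 8.17 ± 0.12, and the airway mucosal chemokine gene Cxcl17 had 7.68 ± 0.22. Ccl21b (7.24 ± 0.04), a homeostatic lymphatic chemokine with near-identical gene copies that its shared probe set may also read, Cxcl16 (7.16 ± 0.07), a membrane-anchored ligand, and Cxcl13 (6.84 ± 0.34), the B cell attractant, completed the 10 brightest. Cxcl12 and Ccl5 overlapped in their ranges over the 3 mice, as did Ccl21b and Cxcl16, and Cxcl16 and Cxcl13. Over the whole order 41 of 51 neighbouring pairs overlapped, so most ranks below the top are not resolved. Places near the top also depended on the probe set taken. When the probe sets of each gene were averaged, Ackr2 went from rank 3 to 10 and Cxcl12 from rank 4 to 9. The same 10 genes still led, with Cxcl15 and Ccl6 at ranks 1 and 2. The other Ackr2 probe sets read 6.45 and 4.49 in controls. The dimmest members were Cxcl2 (3.68), Ccl7 (3.45) and Ccr3 (3.40), and 27 of the 52 genes were dim.

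**Figure D2:**
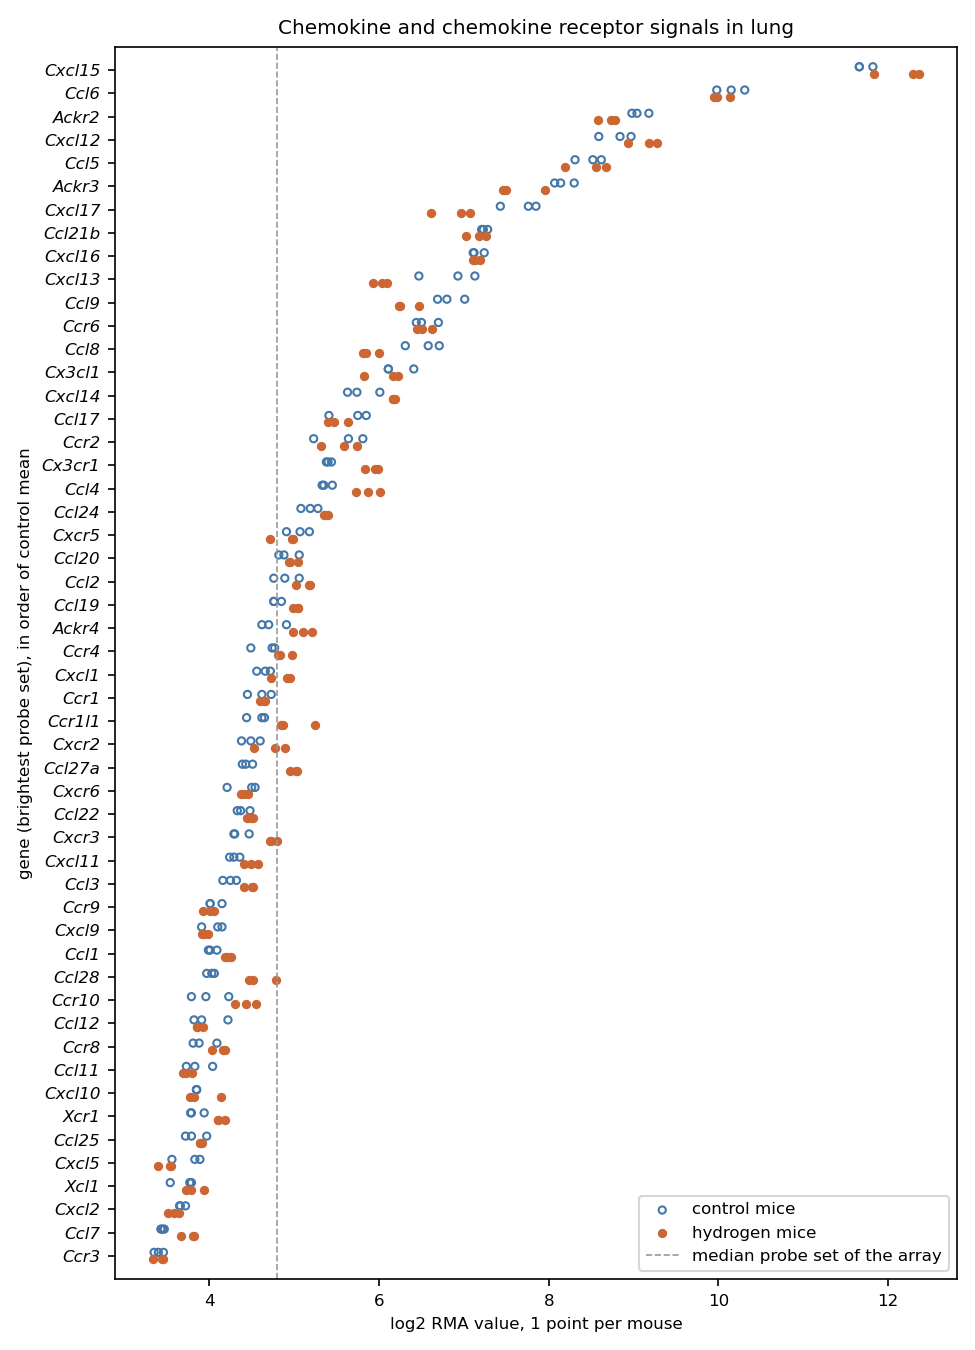
Log2 RMA values of the 52 member genes, each by its brightest probe set and in order of the control mean, with 1 point per mouse (open, control; filled, hydrogen) and the median probe set of the array as a dashed line. Cxcl15 stands highest in both groups, 27 genes lie at or below the dashed line by their mean over all mice, and hydrogen values of Cxcl17, Cxcl13, Ccl9 and Ccl8 lie to the left of the control values.

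The CXC ligand Cxcl13, which draws B cells into follicles through the receptor Cxcr5, had the largest fall. Its brightest probe set read 6.47, 7.13 and 6.93 in control mice 1 to 3 and 6.10, 5.93 and 6.03 in hydrogen mice 1 to 3. The groups did not overlap, and the hydrogen mice lay closer together than the controls. The fall was 0.82 on the log2 scale (log2 change -0.82, SE 0.15, limma adjusted p = 0.00285), or 1.77-fold. The other probe set read 6.29, 7.07 and 6.98 in controls and 5.39, 5.48 and 5.26 in hydrogen mice, and fell 2.65-fold (log2 change -1.40, SE 0.18, adjusted p = 0.000801). Of the 78 member probe sets this was the 1 whose change lay outside the range of the non-mouse control probe sets. Cxcr5 itself was 5.05 ± 0.14 in controls and 4.89 ± 0.16 in hydrogen lungs (log2 change -0.16, adjusted p = 0.191), and did not pass. Of 8 measured B cell markers 4 were higher (Blk, Pax5, Cd22 and Ms4a1) and 1 lower (Ebf1), with a summed linear signal of 614 to 702 in control and 668 to 803 in hydrogen mice. Of 9 lymphatic and stromal markers 4 were lower (Lyve1, Mmrn1, Reln and Pdpn) and 2 higher (Flt4 and the dim Madcam1). Their summed signal was 2766 to 3126 in control and 1882 to 2225 in hydrogen lungs. Most of that sum came from Lyve1 (10.61 in controls) and Pdpn (10.07). Prox1 (0.02) and Tnfsf11 (0.05), both dim, and Cr2 (0.18) did not pass. The part of these cells in the Cxcl13 change was not tested.

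**Figure D3:**
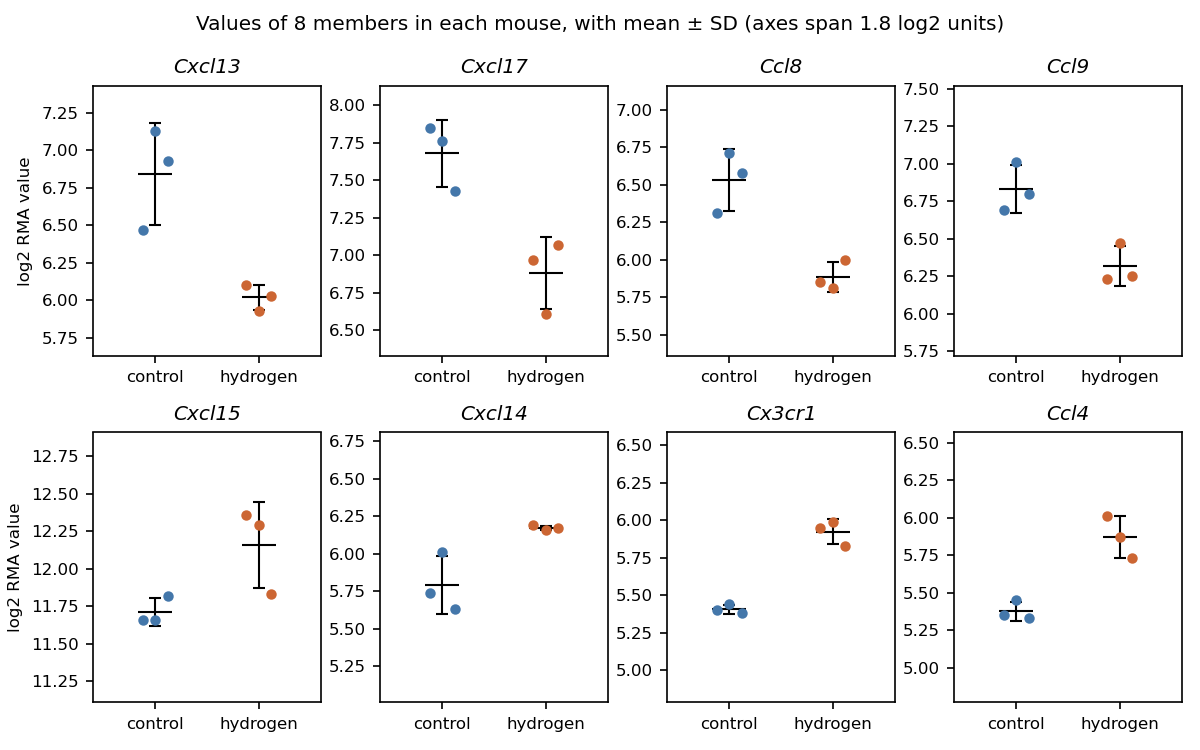
Log2 RMA values of 8 members by their brightest probe set, 1 point per mouse, with the group mean and SD as bars and axes of equal span. The hydrogen mice lie below all control mice for Cxcl13, Cxcl17, Ccl8 and Ccl9 and above them for Cxcl15, Cxcl14, Cx3cr1 and Ccl4.

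Cxcl17, a chemokine of airway and other mucosal epithelium, fell as well. Values were 7.85, 7.76 and 7.43 in control mice and 6.97, 6.61 and 7.07 in hydrogen mice. All hydrogen mice lay below all controls, with mouse 2 lowest. The fall was 1.74-fold (log2 change -0.80, SE 0.14, adjusted p = 0.00259), and -0.60 after cyclic loess (adjusted p = 0.0103). Of 10 lung epithelial markers 4 were lower (Foxj1, Hopx, Scgb3a2 and Ager) and 2 higher (Nkx2-1 and Abca3). Their summed linear signal was 42199 to 42362 in control and 40142 to 40949 in hydrogen lungs, and their part in the change was not tested.

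Cxcl15, the brightest member, moved the other way. It read 11.66, 11.66 and 11.82 in control mice and 12.36, 12.29 and 11.83 in hydrogen mice. Hydrogen mouse 3 lay just above the highest control, so the separation rests on a small gap. It was 1.36-fold higher (log2 change 0.45, SE 0.13, adjusted p = 0.0221), and the second probe set gave 0.37 (SE 0.10, adjusted p = 0.0148) with no overlap either. Over all probe sets of that brightness decile the median change was -0.13. The call of the brightest probe set was lost without control mouse 1 (adjusted p = 0.0662) or 2 (0.0697), without hydrogen mouse 1 (0.0717) or 2 (0.076), and with limma's trended, robust prior (0.0641). The second probe set lost its call without control mouse 1 (0.0519) or hydrogen mouse 1 (0.0512) or 2 (0.0547). Of the alveolar type 2 markers in the epithelial list, the lipid transporter gene Abca3 was higher (log2 change 0.18, adjusted p = 0.0311). The surfactant genes Sftpd, at 11.54 in controls (-0.04, adjusted p = 0.622), and Sftpa1, at 12.31 (-0.03, adjusted p = 0.716), did not pass. The surfactant gene Sftpc read 13.14 to 13.19, where the highest value of any probe set was 13.21 to 13.25, so a rise could hardly be seen in it. Their part in the Cxcl15 change was not tested.

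The 250 bases before the RefSeq start sites of Cxcl13, Ccl8 and Cxcl15 are shown as examples of promoters with a TATA word among ligands that were lower or higher. They were picked for that word: those of Cx3cr1 and Cxcl14, which were also higher, hold no TATAAA in this window. All are on the plus strand of GRCm38.p6, at chr5:95956689-95956938 for Cxcl13, chr11:82114935-82115184 for Ccl8 and chr5:90794284-90794533 for Cxcl15. They run 5′ to 3′, and capitals mark matches to the words searched on both strands, which were TATAAA, GGGNNTTCC (a kappaB-type word) and an interferon-response-type word of GAAA, any 2 bases and GAAA again.
Cxcl13: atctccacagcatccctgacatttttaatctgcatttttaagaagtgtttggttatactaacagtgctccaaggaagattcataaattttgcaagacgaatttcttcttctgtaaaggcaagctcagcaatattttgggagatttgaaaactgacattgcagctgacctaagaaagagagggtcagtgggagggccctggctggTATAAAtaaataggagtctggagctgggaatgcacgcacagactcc
Ccl8: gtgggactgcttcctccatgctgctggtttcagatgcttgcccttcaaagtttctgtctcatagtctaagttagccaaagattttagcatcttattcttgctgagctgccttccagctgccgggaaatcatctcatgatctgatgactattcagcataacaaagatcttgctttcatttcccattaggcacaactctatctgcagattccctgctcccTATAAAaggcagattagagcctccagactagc
Cxcl15: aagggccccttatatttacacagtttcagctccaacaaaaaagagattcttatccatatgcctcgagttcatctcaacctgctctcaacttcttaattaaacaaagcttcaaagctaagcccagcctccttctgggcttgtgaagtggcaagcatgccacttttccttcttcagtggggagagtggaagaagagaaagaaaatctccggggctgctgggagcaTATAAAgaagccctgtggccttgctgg
The TATA word begins 46 bases before the start in Cxcl13, 32 in Ccl8 and 27 in Cxcl15. Promoters of 40 of the 52 member genes were matched by symbol. A TATAAA word occurred in those of 12 genes, of which 4 were higher and 4 lower, and in 12.4% of 32851 promoters of this length. A kappaB-type word was found for 7 genes (Ackr4, Ccl19, Ccl20, Ccl9, Ccr6, Cxcl10 and Cxcl9), of which 2 were higher and 1 lower, and in 4.98% of all promoters. The interferon-response-type word was found for Ccl19, Cxcl10 and Cxcl14, and in 2.98% of all promoters. A match is a run of letters and not a shown binding site.

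The other CXC ligands moved in both directions. Cxcl14, a homeostatic chemokine of epithelium and fat, read 5.74, 6.01 and 5.63 in controls and 6.19, 6.16 and 6.17 in hydrogen mice. The hydrogen mice were nearly equal and all above the controls (log2 change 0.38, SE 0.09, adjusted p = 0.0106), and the second probe set gave 0.64 (SE 0.10, adjusted p = 0.00183). Cxcl16, the ligand of Cxcr6, did not pass by its brightest probe set (-0.01, adjusted p = 0.871), which turned to 0.21 after renewed quantile normalisation (adjusted p = 0.0203) and 0.18 after cyclic loess (adjusted p = 0.0391). The mean of both probe sets was lower (-0.25, adjusted p = 0.0137), so the direction for this gene depends on the setting. Its other probe set read 6.87, 6.60 and 6.60 in control and 6.11, 6.23 and 6.27 in hydrogen mice, without overlap, and fell by 0.49 on the log2 scale (SE 0.09, adjusted p = 0.00268). That probe set is of the kind that may read more than 1 transcript. Unlike Cxcl15, the neutrophil attractants Cxcl1, Cxcl5 and Cxcl2 were dim. Cxcl1 rose (0.22, SE 0.08, adjusted p = 0.0412) and Cxcl5 fell (-0.26, SE 0.09, adjusted p = 0.0433). Cxcl2 was 3.68 ± 0.04 in controls and 3.58 ± 0.07 in hydrogen mice (-0.10, adjusted p = 0.183). The Cxcl1 call was lost without control mouse 2 (adjusted p = 0.129) or 3 (0.0731), without hydrogen mouse 1 (0.118) or 3 (0.119), and after cyclic loess (0.372). The Cxcl5 call was lost without control mouse 1 (0.135) or 3 (0.114) and without hydrogen mouse 1 (0.0672), 2 (0.0761) or 3 (0.124). Cxcl2 passed as lower after cyclic loess (-0.19, adjusted p = 0.0317). Of 11 neutrophil markers 2 were higher and 2 lower, with a summed linear signal of 1554 to 2118 in control and 1712 to 2161 in hydrogen lungs.

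The interferon-induced trio Cxcl9, Cxcl10 and Cxcl11, which attract T and NK cells through Cxcr3, were dim. Cxcl10 had 3.85 in each control mouse and 3.82, 4.14 and 3.77 in hydrogen mice (0.06, adjusted p = 0.623). Cxcl9 was 4.05 ± 0.13 in controls and 3.95 ± 0.04 in hydrogen mice (-0.11, adjusted p = 0.253). It passed as lower after renewed quantile normalisation (-0.23, adjusted p = 0.0342) and cyclic loess (-0.23, adjusted p = 0.0315). Cxcl11 rose by a small amount (0.20, SE 0.06, adjusted p = 0.0346), a call lost without control mouse 1 (0.1) or 2 (0.0829), without hydrogen mouse 1 (0.115) or 2 (0.0839) and after cyclic loess (0.05, adjusted p = 0.532). A still dimmer second Cxcl11 probe set had 0.17 (adjusted p = 0.0662). Of the 12 CXC ligand genes 5 were higher and 3 lower by their brightest probe set, with a median of 0.02. That is 41.7% and 25%, beside 25.5% and 25.9% of all genes.

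Among CC ligands the falls were those of Ccl8 and Ccl9. Ccl8, which in the mouse acts on Ccr8, read 6.31, 6.71 and 6.58 in control and 5.85, 5.81 and 6.00 in hydrogen mice. The groups were well apart, and the fall was 1.57-fold (log2 change -0.65, SE 0.10, adjusted p = 0.00175). Ccl9, a myeloid ligand of Ccr1, read 6.69, 7.01 and 6.80 in control and 6.23, 6.47 and 6.25 in hydrogen mice. It fell 1.43-fold without overlap (log2 change -0.52, SE 0.10, adjusted p = 0.00352), while its dim second probe set had -0.07 (adjusted p = 0.456). After cyclic loess Ccl8 had -0.53 and Ccl9 -0.36, both past the threshold (adjusted p = 0.00627 and 0.0253). Ccl6, the brightest CC ligand, was 10.15 ± 0.17 in controls and 10.02 ± 0.10 in hydrogen mice (-0.12, adjusted p = 0.294). Of 13 monocyte and macrophage markers 6 were lower and 1 higher. The lower ones included the complement genes C1qa (-0.65), C1qb (-0.75) and C1qc (-0.75) and the scavenger receptor gene Cd163 (-1). The summed linear signal of that list was 6925 to 7491 in control and 6575 to 6816 in hydrogen lungs. Of 10 alveolar macrophage markers 4 were lower (Car4, Plet1, Lpl and Pparg) and none higher, with sums of 3724 to 4503 and 2840 to 3381. Car4 is also in the blood endothelial list, and Lpl (10.37 in controls) and Car4 (9.79) weigh heavily in the sum. The other markers did not pass, with changes from -0.24 (Krt79) to 0.32 (Marco), among them Chil3 (-0.08) and Siglecf (0.11). The part of macrophages in the falls of Ccl8 and Ccl9 was not tested.

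Of the 8 higher CC ligand genes 5 were dim. Ccl4, a ligand of inflammatory CC receptors made by T cells and macrophages, had the largest rise of the other 3. It read 5.35, 5.45 and 5.33 in control and 6.01, 5.87 and 5.73 in hydrogen mice, a 1.41-fold rise without overlap (log2 change 0.49, SE 0.08, adjusted p = 0.00176). The related Ccl3 rose less (0.23, SE 0.06, adjusted p = 0.017), and its call was lost without control mouse 2 (0.0574) or hydrogen mouse 2 (0.061) and after cyclic loess (0.302). Ccl5, the third of these, did not pass: it was 8.48 ± 0.16 in controls and 8.47 ± 0.25 in hydrogen mice (-0.01, adjusted p = 0.956). Ccl28, a mucosal ligand of Ccr10, read 4.06, 3.97 and 4.03 in control and 4.47, 4.79 and 4.52 in hydrogen mice. It was 1.49-fold higher (log2 change 0.57, SE 0.09, adjusted p = 0.00141), but its other probe sets had 0.14 and 0.11 and did not pass, the first of them passing without control mouse 3 (adjusted p = 0.0454). Ccl27a, known from skin, read 4.43, 4.51 and 4.39 in control and 5.02, 4.95 and 5.03 in hydrogen mice and rose 1.47-fold (log2 change 0.56, SE 0.06, adjusted p = 0.000395). Ccl7, a monocyte attractant that acts on Ccr2, rose from 3.45 ± 0.02 to 3.77 ± 0.08 (log2 change 0.32, SE 0.06, adjusted p = 0.00367). The median change of all probe sets was 0.09 to 0.15 in the brightness deciles of Ccl3, Ccl28, Ccl27a and Ccl7, and -0.05 in that of Ccl4.

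Smaller rises in CC ligands were less firm. Ccl19, a lymphoid homing ligand, rose by 0.23 (SE 0.05, adjusted p = 0.00912) without overlap, and lost its call after cyclic loess (0.13, adjusted p = 0.109). Ccl24, an eosinophil attractant, rose by 0.19 (adjusted p = 0.0414), and lost its call without control mouse 1 (0.0823) or 2 (0.126) or hydrogen mouse 1 (0.112), 2 (0.0912) or 3 (0.0707). Its call was also lost when arrays were centred on the median (0.10, adjusted p = 0.235), after renewed quantile normalisation (0.0502) and cyclic loess (0.11), and with the trended, robust prior (0.0735). Ccl1, a ligand of Ccr8, rose by 0.19 (adjusted p = 0.0224), and lost its call without control mouse 1 (0.0652) or 3 (0.0542) or hydrogen mouse 1 (0.0737), and after cyclic loess (0.44). The monocyte attractant Ccl2 was 4.90 ± 0.15 in controls and 5.13 ± 0.10 in hydrogen mice (0.23, SE 0.09, adjusted p = 0.0585). It passed as higher without control mouse 3 (0.0184) or hydrogen mouse 3 (0.0416). Of 10 eosinophil, mast cell and basophil markers, 9 of them dim, 2 were higher (Prg2 and Tpsb2) and none lower, with a summed linear signal of 351 to 375 in control and 381 to 483 in hydrogen lungs. Their part in the Ccl24 change was not tested. The eotaxin gene Ccl11 was dim at 3.87 ± 0.16 and 3.74 ± 0.06 (-0.13, adjusted p = 0.226). The shared probe set of Ccl21b had 7.24 ± 0.04 and 7.16 ± 0.12 (-0.08, adjusted p = 0.348). The Ccr4 ligands Ccl17 (-0.17, adjusted p = 0.261) and Ccl22 (0.09, adjusted p = 0.262), the Ccr6 ligand Ccl20 (0.06, adjusted p = 0.53) and the Ccr2 ligand Ccl12 (-0.10, adjusted p = 0.413) did not pass. Ccl17 passed as lower without control mouse 1 (-0.30, adjusted p = 0.0306). Ccl25, the thymic and gut ligand of Ccr9, did not pass by its brightest probe set (0.07, adjusted p = 0.423), and its other probe set was higher (0.25, adjusted p = 0.0207), a call lost without control mouse 1 (0.0669) or hydrogen mouse 2 (0.0721) or 3 (0.0632). Of the 20 CC ligand genes 8 were higher and 2 lower by their brightest probe set, with a median of 0.08. That is 40% and 10%, beside 25.5% and 25.9% of all genes, and 32% of all dim probe sets were higher.

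Cx3cl1, the membrane-bound ligand of Cx3cr1, was read differently by its probe sets. The brighter had 6.21 ± 0.17 in controls and 6.07 ± 0.22 in hydrogen mice (-0.14, SE 0.12, adjusted p = 0.368). The dimmer read 4.53, 4.77 and 4.66 in control and 5.28, 5.07 and 5.07 in hydrogen mice and was higher (0.49, SE 0.08, adjusted p = 0.00244). Their mean gave 0.17 (adjusted p = 0.0494 in a fit over gene means), so the direction for this gene depends on the probe set. The XC ligand Xcl1 did not pass (0.12, adjusted p = 0.291).

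Cx3cr1, the receptor of monocytes, tissue macrophages and some cytotoxic lymphocytes, had the clearest rise among receptors. Values were 5.40, 5.44 and 5.38 in control and 5.95, 5.99 and 5.83 in hydrogen mice. Within each group the mice were close, and the difference between groups was larger than the spread in either. The rise was 1.43-fold (log2 change 0.52, SE 0.06, adjusted p = 0.000574), and 0.55 after cyclic loess. Its dim second probe set rose by 0.23 (adjusted p = 0.015), and lost its call without hydrogen mouse 1 (0.0518) and after cyclic loess (0.0923). Xcr1, the receptor of cross-presenting dendritic cells, rose by 0.29 (SE 0.06, adjusted p = 0.00683) at a dim level, and lost its call after cyclic loess (0.17, adjusted p = 0.0633). Of 10 dendritic cell markers 2 were higher (Batf3 and Flt3) and none lower, and of 9 NK cell markers 2 were higher and 1 lower. Their summed linear signals were 1739 to 1862 and 860 to 1037 in control and 1750 to 1836 and 891 to 1105 in hydrogen lungs. Of the monocyte and macrophage list, given above, 6 of 13 markers were lower beside the rise of Cx3cr1. The dim Treml4 was the 1 higher marker of that list (0.36, adjusted p = 0.00825). The part of these lists was not tested.

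Of 4 CXC receptor genes Cxcr3, found on activated T and NK cells, rose. It read 4.29, 4.30 and 4.47 in control and 4.72, 4.73 and 4.80 in hydrogen mice, a 1.32-fold rise without overlap (log2 change 0.40, SE 0.07, adjusted p = 0.0021), which was 0.25 after cyclic loess (adjusted p = 0.0164). Of 10 T cell markers 4 were higher (Cd8a, Cd4, Cd5 and Cd3d) and 1 lower (Cd2). Their summed signal was 389 to 438 in control and 441 to 498 in hydrogen lungs, and their part in the change was not tested. Cxcr2, the neutrophil receptor for Cxcl1, Cxcl2 and Cxcl5, read 4.49, 4.6 and 4.38 in controls and 4.77, 4.89 and 4.53 in hydrogen mice. The groups overlapped and it did not pass (0.24, SE 0.10, adjusted p = 0.0739), though it did without hydrogen mouse 3 (0.34, adjusted p = 0.015). Cxcr6 had changes of -0.003 and -0.16 by its 2 probe sets, neither past the threshold, and the dimmer passed as lower without control mouse 3 (-0.20, adjusted p = 0.0341) and after cyclic loess (-0.24, adjusted p = 0.0178).

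Of 9 CC receptor genes Ccr10 and Ccr1l1 were higher and none lower by the brightest probe set. That is 22.2% higher, beside 25.5% higher and 25.9% lower of all genes. Ccr10, the receptor of Ccl27a and Ccl28, read 3.79, 3.96 and 4.23 in control and 4.43, 4.55 and 4.30 in hydrogen mice (log2 change 0.43, SE 0.11, adjusted p = 0.014). The call was lost without hydrogen mouse 2 (0.052) and after cyclic loess (0.30, adjusted p = 0.0599). Ccr1l1, a relative of Ccr1, rose by 0.42 (SE 0.11, adjusted p = 0.0155), and lost its call without control mouse 2 (0.0578) and after cyclic loess (0.0633). Ccr2, the monocyte receptor for Ccl2 and Ccl7, read 5.64, 5.81 and 5.23 in control and 5.59, 5.74 and 5.32 in hydrogen mice. Its groups overlapped almost fully (-0.01, SE 0.15, adjusted p = 0.965). Of its 3 other probe sets 1 was higher (0.42, SE 0.07, adjusted p = 0.00205), and the others had 0.06 and -0.01. Ccr6, the receptor of Ccl20, was 6.55 ± 0.14 and 6.53 ± 0.09 (-0.02, adjusted p = 0.884). Ccr1, Ccr3, Ccr4, Ccr8 and Ccr9 did not pass by their brightest probe sets, with changes from -0.06 to 0.21. The dim second probe set of Ccr1 was lower (-0.21, adjusted p = 0.0429), a call lost without any 1 of control mice 2 (0.123) and 3 (0.0514) and hydrogen mice 1 (0.116), 2 (0.0582) and 3 (0.101). Of the 4 Ccr9 probe sets 1 was higher (0.19, adjusted p = 0.022), a call lost without control mouse 2 (0.0594) or hydrogen mouse 1 (0.0755) or 3 (0.0542). Ccr4 (adjusted p = 0.0799) did not overlap between the groups, and Ccr8 (0.0802) passed without control mouse 2 (0.28, adjusted p = 0.0224).

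By their brightest probe sets the scavenging receptors Ackr2 and Ackr3 were lower and Ackr4 was higher. Ackr2 read 8.98, 9.18 and 9.04 in control and 8.58, 8.73 and 8.78 in hydrogen mice (log2 change -0.37, SE 0.08, adjusted p = 0.00525), without overlap. Its 2 dimmer probe sets had 0.003 (adjusted p = 0.965) and 0.38 (SE 0.07, adjusted p = 0.00315), and the mean of the 3 gave 0.01 (adjusted p = 0.935). Ackr3 read 8.30, 8.07 and 8.14 in control and 7.5, 7.46 and 7.96 in hydrogen mice, with hydrogen mouse 3 closest to the controls. It was 1.44-fold lower (log2 change -0.53, SE 0.13, adjusted p = 0.011), by a single probe set of the kind that may read more than 1 transcript. The median change in its brightness decile was -0.23, and after cyclic loess the calls of Ackr2 (-0.20, adjusted p = 0.0723) and Ackr3 (-0.33, adjusted p = 0.0693) were lost. Of 11 blood endothelial markers 4 were lower and none higher, with a summed linear signal of 10625 to 11446 in control and 9490 to 10496 in hydrogen lungs. Their part was not tested. Ackr4, which clears Ccl19, Ccl21 and Ccl25, rose from 4.74 ± 0.15 to 5.10 ± 0.11 (log2 change 0.36, SE 0.09, adjusted p = 0.0118), and lost its call after cyclic loess (0.25, adjusted p = 0.0547).

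Probe sets of a gene often gave different answers. Of the 17 genes with more than 1 probe set, 5 had the same call in each (Cx3cr1, Cxcl13, Cxcl14 and Cxcl15 with a change, Cxcr6 with none), and 3 had opposite calls. The 3 were Ackr2, Ccl27a and Cxcl12. Cxcl12, the stromal ligand of Ackr3, read 8.84, 8.97 and 8.59 in control and 9.28, 9.18 and 8.94 in hydrogen mice by its brightest probe set. It passed as higher there, although the groups overlapped (log2 change 0.33, SE 0.11, adjusted p = 0.0414). The second probe set read 7.64, 7.51 and 7.42 in control and 7.27, 7.07 and 7.13 in hydrogen mice and passed as lower (-0.37, SE 0.08, adjusted p = 0.0059). The third, a dim one, was higher (0.39, SE 0.07, adjusted p = 0.00229). The mean of the 3 gave 0.12 (adjusted p = 0.16), so no direction can be given for Cxcl12 as a gene. The brightest probe set lost its call without control mouse 1 (0.0763) or 3 (0.115) or hydrogen mouse 1 (0.13) or 2 (0.11), and the second after cyclic loess (-0.17, adjusted p = 0.116). For Ccl27a 2 probe sets were higher, 1 did not pass, and 1 of the kind that may read other transcripts fell by 0.27 on the log2 scale (adjusted p = 0.0214). That fall was lost without control mouse 2 (0.0613) or 3 (0.0557) or hydrogen mouse 1 (0.0593) or 2 (0.0635). The 2 Ccl27a probe sets with the highest means differed by little in level and had opposite calls.

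**Figure D4:**
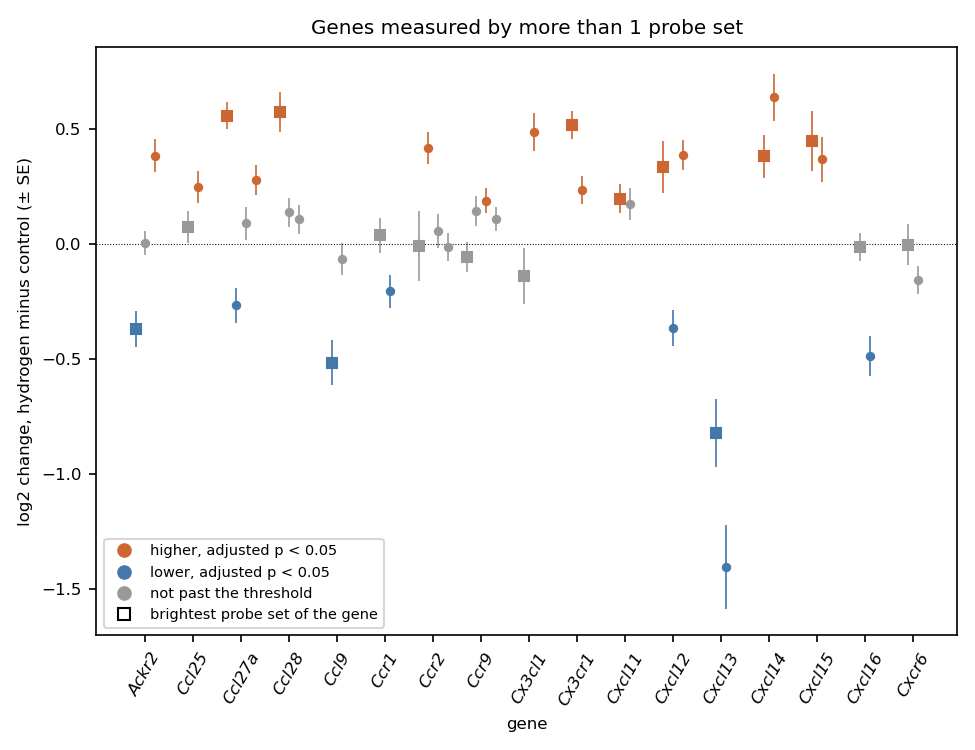
Log2 change (hydrogen minus control, ± SE) of each probe set of the 17 genes with more than 1 probe set, from brightest (square) to dimmest, coloured by call. Cxcl13, Cxcl14, Cxcl15 and Cx3cr1 keep 1 direction, and Ackr2, Ccl27a and Cxcl12 have probe sets past the threshold on both sides of 0.

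Setting ligands beside known receptors, a list of 28 pairs of 15 receptors and 27 ligands was compared, each gene by its brightest probe set. The list does not hold every known pair, and Ackr2 and Ackr4 are not in it. In 3 listed pairs both were higher (Ccr10 with Ccl27a and with Ccl28, Cxcr3 with Cxcl11), in none of the listed pairs were both lower, and in 10 neither passed. Of these 3 pairs, the calls of Ccr10 and Cxcl11 were lost after cyclic loess (adjusted p = 0.0599 and 0.532), and another Ccl27a probe set of nearly the same level was lower (-0.27, adjusted p = 0.0214). By these probe sets Ackr3 was lower and its ligands Cxcl12 and Cxcl11 higher, but the probe sets of Cxcl12 had opposite calls, and the calls of Ackr3 and Cxcl11 were lost after cyclic loess (adjusted p = 0.0693 and 0.532). Ccl8, Ccl9, Cxcl13 and Cxcl5 were lower while the paired receptors Ccr8, Ccr1, Cxcr5 and Cxcr2 did not pass. The rise of Ccl7 stood beside a Ccr2 probe set that did not pass, and the rise of Cx3cr1 beside a brighter Cx3cl1 probe set that did not pass. Outside the list, Ackr4 (0.36) and Ccl19 (0.23), which it clears, were both higher, and Ccl25 (0.07) did not pass. The calls of Ackr4 and Ccl19 were lost after cyclic loess (adjusted p = 0.0547 and 0.109). Pairs share genes, so they are not independent, and no test was made across them.

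Of 37 measured genes that chemokine receptors signal through, 8 were higher and 11 lower, with a median log2 change of -0.05, beside 0.01 over all genes. These are 21.6% and 29.7%, near the 25.5% and 25.9% of all genes. Rgs2 (log2 change 1.11, SE 0.13, adjusted p = 0.000548), which shortens G protein signals, was higher. The adhesion adaptor Pxn (-0.47, adjusted p = 0.000587), Rap1gds1 (-0.53, adjusted p = 0.00129), which acts on small GTPases, and the kinase Jak2 (-0.32, adjusted p = 0.00208) were lower. Of 21 cytokines and regulators that induce or limit chemokines, 7 were higher and 3 lower (33.3% and 14.3%), with a median of 0.01. The lower ones were Nfkbia (-0.57, adjusted p = 0.00437), which holds NF-kappaB back, and the receptor genes Il1r1 (-0.34, adjusted p = 0.0175) and Ifngr1 (-0.17, adjusted p = 0.033). The higher ones included the cytokine genes Tnf (0.46, adjusted p = 0.000596) and the dim Il17a (0.47, adjusted p = 0.0023) and the NF-kappaB subunit gene Nfkb2 (0.49). Il1b (0.37, adjusted p = 0.00311), a cytokine that induces many chemokines, was higher as well, at a control level of 6.07. Of 19 genes that cut, modify or display chemokines 4 were higher and 5 lower (21.1% and 26.3%), with a median of -0.11. Among these the heparan sulphate carrier Sdc2 (-0.30) was lower. The proteases Elane (0.40), Mmp9 (0.57) and the dim Ctsg (0.30) were higher, and the proteases Dpp4 (-0.17) and the dim Mmp12 (-0.24) were lower. Mmp2, Mmp8, Adam10 and Adam17 did not pass. Of 12 related genes outside the naming rule, the platelet CXC chemokines Ppbp (-1.11, adjusted p = 0.00105) and Pf4 (-0.50, adjusted p = 0.0136) were lower and Gpr1 (0.18) was higher. Of 6 platelet markers 2 were lower, Ppbp and Pf4 themselves, and Treml1 was higher (0.39, adjusted p = 0.00211). Itga2b (0.12), Gp5 (0.07) and Gp9 (0.01) did not pass. The summed linear signal of the list, which includes Ppbp and Pf4, was 742 to 1047 in control and 613 to 691 in hydrogen lungs. The part of platelets in the fall of Ppbp and Pf4 was not tested.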

How the data were processed

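The deposited table holds log2 values per probe set, to 2 decimals, made by the authors with RMA in Affymetrix Expression Console, per the submitters' processing notes. The sources used here give neither versions nor whether the 6 arrays were normalised together. The arrays were MG-430 PM strips, per the labels' protocols. Of its probe sets 104 are controls by name and 45037 entered the tests. The annotation gives 1 symbol for 28898, several for 551 and none for 15588, and the symbols of all 52 member genes matched RefSeq names of GRCm38.p6 by Entrez identifier. The comparison used limma 3.58.1 (lmFit, then eBayes, no filter; R 4.3.3), adjusted over all probe sets, and the script was tested on simulated data. The brightest probe set over all 6 arrays stood for a gene. Changes are hydrogen minus control with moderated SE. Each mouse is 1 replicate, and the number of arrays limits precision. Alternatives were a replicate block, other scalings, array weights, another prior, filters, gene means and leaving out each mouse. Described with values were up to 12 called rises and falls without overlap, the 10 brightest members and a preset series of members that met the rule, and up to 4 genes with the smallest p of each list. The members and the 17 lists were chosen with earlier results of these data known. Genes named beyond 4 in a list, other called members and Sftpc, Scgb1a1 and Ager were named after their values were seen. Promoters are from RefSeq. Figures were drawn with matplotlib 3.10.9.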

Additional observations from a re-analysis of the deposited data

How the results depend on the processing

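Of 29 higher member probe sets 12 kept their call in every alternative that retained them, as did 6 of 12 lower ones. The lower ones were Cxcl17, Ccl8, both Cxcl13 probe sets, the brighter Ccl9 probe set and the less bright Cxcl16 probe set. The other probe sets of Ccl9 (-0.07) and Cxcl16 (-0.01) did not pass in the main fit. The number of higher member probe sets was 19 with arrays centred on the median, 19 after renewed quantile normalisation, 17 after cyclic loess and 12 without dim probe sets, of which 34 members remained. For member genes the higher counts were 12, 12, 10 and 8. Over all probe sets the higher count was 6377 when centred, 8442 after renewed quantile normalisation, 7635 after cyclic loess and 3663 without dim probe sets. Among results where a call was involved, Cxcl16 by its brightest probe set became higher (0.21 after quantile normalisation and 0.18 after cyclic loess). For Ackr2 and Cx3cl1 the mean over all probe sets had the opposite sign to the brightest one (0.00556 and 0.17). Members without a call, such as Ccl5, Ccl21b, Ccr6, Ccr1 and Ccl22, also changed sign under other scalings. The cause was not tested. Leaving out 1 mouse at a time gave 20 to 28 higher and 9 to 12 lower member probe sets, 13 to 19 higher and 6 to 7 lower member genes, and 7985 to 10097 higher and 7938 to 9608 lower among all probe sets. The 10 brightest members were kept by 9 to 10. With the replicate number as a block 29 member probe sets were higher and 11 lower, with Cxcl11, Ccl24 and Cxcl5 no longer past the threshold (adjusted p = 0.07, 0.0605 and 0.0537) and Cxcr2 and Ccr8 past it (0.0223 and 0.0482). Deviations of mice with the same number correlated at 0.08, 0.03 and -0.11, control mouse 2 correlated best with hydrogen mouse 3, and the mice share only a number. Slide and scan batches and background correction could not be varied without scanner data, and low signal limits what can be seen of dim members.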

Other observations

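Chemokine genes lie in runs on the chromosomes, and neighbours did not all have the same call. In the run of Ccl2, Ccl7, Ccl11, Ccl12, Ccl8 and Ccl1, given in RefSeq's order, 2 were higher (Ccl7 and Ccl1), 1 lower (Ccl8) and 3 did not pass. In the run of Ccl5, Ccl9, Ccl6, Ccl3 and Ccl4, 2 were higher (Ccl3 and Ccl4), 1 lower (Ccl9) and 2 did not pass. Cxcl15 and Cxcl1 were higher in the run that ends with Cxcl2. Xcr1 and Ccr1l1 were the 2 higher genes in the run of 7 receptors from Ccr9 to Ccr2, where none was lower. Genes were placed in a run when at most 2 other protein-coding genes lay between neighbours, a rule set after the values were seen.

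A pair of probe sets was annotated to Ackr4 and the neighbouring gene Acad11 together and was not counted among the members. The first had 3.71 ± 0.09 in control and 3.52 ± 0.12 in hydrogen mice (log2 change -0.19, adjusted p = 0.0669). The second had 4.12 ± 0.15 and 3.83 ± 0.08 (log2 change -0.29, adjusted p = 0.0213), against the direction of the Ackr4 probe set.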
